A study of Mus musculus with 6 samples.

Results

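Chd4 and Mbd3 knockdown were set against each other in mouse embryonic stem cells at day 4 of neural differentiation, with 1 array for each knockdown, which are 2 of the 6 arrays in the series. Every probe set that carries exactly 1 gene symbol was taken, 23521 of 34351, and these gave 22180 genes. A gene was compared where the brighter of the 2 arrays reached an intensity of 41.4, the highest of the 6 array medians and called the floor here, which left 13179 genes. A difference is log2 of the Chd4-knockdown intensity minus log2 of the Mbd3-knockdown intensity, so a positive value means a higher intensity after Chd4 knockdown.

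The cells had been infected with a lentivirus whose short hairpin RNA (shRNA) targets Chd4 or Mbd3, or serves as a control. Day 0 cells of each line grew as stem cells on gelatin in medium with serum and leukemia inhibitory factor (LIF), the cytokine that keeps mouse stem cells undifferentiated. Day 4 cells of each line had been re-aggregated in low-adhesion plates in medium with knockout serum replacement and without that cytokine in its description, a protocol that turns aggregates towards neural tissue. The control arrays and the day 0 arrays are given beside the values. The labels name no separate cultures, clones or replicate numbers, so an array may hold 1 culture or a pool.

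CHD4 and MBD3 are subunits of NuRD, a complex that joins nucleosome remodelling to histone deacetylation and mostly restrains transcription. CHD4 is the ATPase that moves nucleosomes, and it also works in assemblies without MBD3. MBD3 links the deacetylase core of the complex to the CHD4 side, and stem cells without it have trouble leaving the pluripotent state. Setting the 2 knockdowns against each other asks which transcripts differ between loss of the remodeller and loss of the linker.

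The silenced genes themselves were read as RNA intensity on 1 array for each line and day, which does not measure the protein left. The Chd4 probe set read 727 in the Chd4 knockdown, 942 in the Mbd3 knockdown and 1021 in control cells at day 4, and it read 289.6, 896 and 973 at day 0. The Mbd3 probe set read 204 in the Chd4 knockdown, 138 in the Mbd3 knockdown and 183 in control cells at day 4, and it read 204, 92.8 and 216 at day 0. Each target was lowest in its own line at both days, but at day 4 Chd4 stood at 71.3% of control in the Chd4 line and Mbd3 at 75.5% of control in the Mbd3 line. The difference between the knockdowns was -0.37 for Chd4 and 0.56 for Mbd3 at day 4, against -1.63 and 1.14 at day 0. Neither target was 2-fold apart between the lines at day 4, and whether the remaining level of either target bears on the results was not tested.

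At day 4 the summed stem cell markers were above control in both knockdowns and the summed neural progenitor markers were below it. The summed intensity of 5 stem cell markers (Pou5f1, Nanog, Sox2, Zfp42 and Esrrb) was 4270 in the Chd4 knockdown, 4349 in the Mbd3 knockdown and 2642 in control, with all 5 at or above the floor in each. Sox2, a bright member of the sum, went the other way, with both knockdowns below control. The sum of 5 neural progenitor markers (Sox1, Pax6, Nes, Fabp7 and Hes5) was 433 in the Chd4 knockdown, 686 in the Mbd3 knockdown and 3357 in control, with Hes5 under the floor in both knockdowns. Neuron markers summed to 1403, 1130 and 2334 in the same order, and fibroblast markers to 249.6, 231 and 264 with 3 of 5 at or above the floor in each array. Primitive endoderm markers summed to 383, 342 and 254, trophectoderm markers to 119, 162 and 111, and 2 measured mesoderm markers to 72.6, 73.5 and 79.3. These 3 sums rest in part on values under the floor. At or above it were 3, 2 and 2 of 4 primitive endoderm markers, and 1 of 3 trophectoderm and 1 of 2 mesoderm markers in each array. In bulk RNA, fewer cells of a type and less RNA per cell cannot be told apart. Array medians lay between 39.6 and 41.4.

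The 2 knockdowns gave similar transcript levels, and the genes that stood apart lay mostly on the Chd4 side. Of 13179 compared genes, 122 (0.926%) were at least 2-fold higher in the Chd4 knockdown and 24 (0.182%) were at least 2-fold lower. The median difference over all compared genes was 0.01 and its SD 0.29 (n = 13179 genes of 1 array pair), and 95% of the genes lay between -0.52 and 0.61. With both arrays at or above the floor, 76 genes were higher and 24 lower, and with values under the floor set to it, 97 were higher and 24 lower. The other 46 higher genes entered only through a bright Chd4-knockdown array, so their direction was set by the filter and their fold is a bound. By measured values 13 genes were at least 4-fold higher, 8 of them also at their bound against the floor, and 0 were at least 4-fold lower. Just inside the 2-fold limit were 2410137M14Rik at 1.00 and Txlnb at 1.01, with Dpysl2 at -1.01 and Slc7a8 at -1.01. Just outside it were Morc1 at 0.998 and Ccn1 at 0.996, with Snora15 at -0.999 and Stk39 at -0.992. With 1 array a side these differences have no test, and the number of arrays limits their precision.

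**Figure D1:**
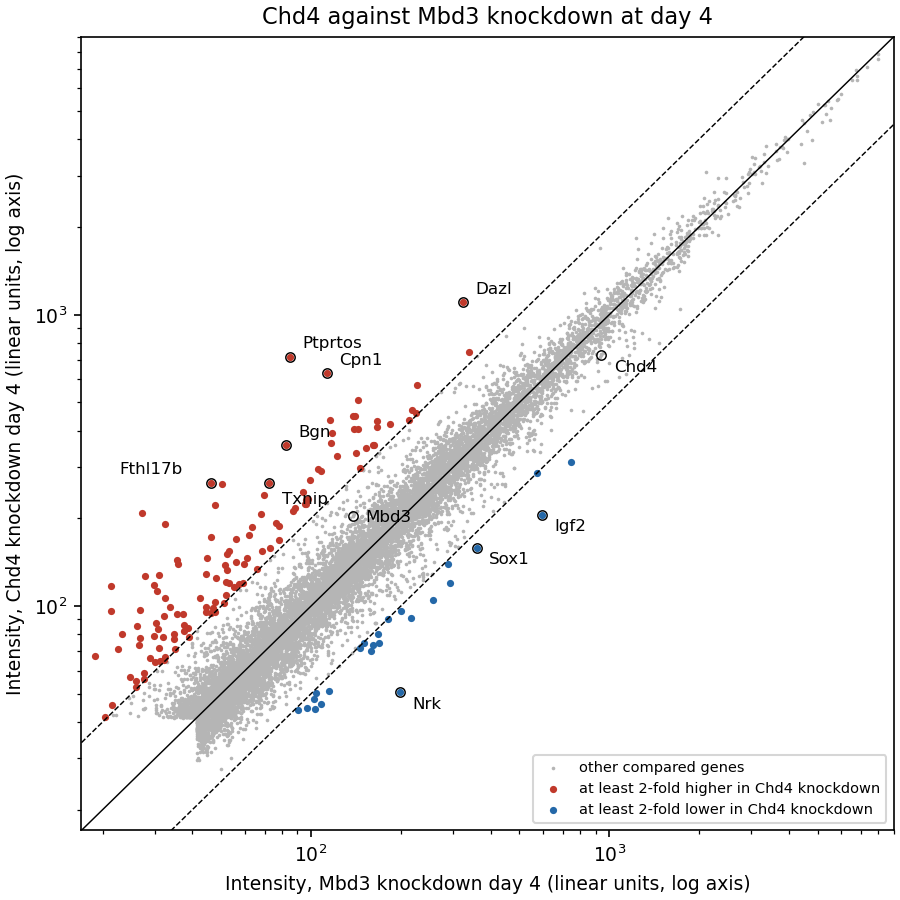
Intensity of each of 13179 compared genes in the Chd4 knockdown (vertical axis) and the Mbd3 knockdown (horizontal axis) at day 4, both in linear units on log axes, with the line of equality solid and 2-fold dashed. The 122 red genes above the upper dashed line outnumber the 24 blue genes below the lower one, and Chd4 and Mbd3 themselves lie inside the band.

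Ptprtos, a noncoding transcript named for its place opposite the phosphatase gene Ptprt, stood furthest apart. Its intensity was 718 in the Chd4 knockdown, 85.2 in the Mbd3 knockdown and 53.6 in control at day 4, and 417, 67.1 and 74.1 at day 0. The Chd4-knockdown array was thus far above the other arrays at both days, by 8.42-fold over the Mbd3 knockdown at day 4 (3.07 on the log2 scale, against 2.64 at day 0). Ptprt was not compared here, and whether the probe set also reads that gene was not tested. Cpn1, the catalytic subunit of a carboxypeptidase of blood plasma, read 629 in the Chd4 knockdown, 113 in the Mbd3 knockdown and 54.1 in control (2.47). Bgn, which encodes the matrix proteoglycan biglycan, read 357, 82.2 and 78.1 at day 4 and 244, 72.0 and 77.0 at day 0, so the Mbd3 knockdown lay close to control at both days (2.12 at day 4). That value is of its brightest probe set, and the mean of its probe sets gave 1.15. Fthl17b, an X-linked gene of the ferritin heavy chain family, read 266 in the Chd4 knockdown, 46.2 in the Mbd3 knockdown and 35.2 in control (2.52, or 5.75-fold).

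To show how the start regions of these genes look, 300 bases around the start (250 before and 50 after it) are printed for the gene furthest apart, for Fthl17b, the X-linked gene with the largest difference among those with both arrays at or above the floor, for Dazl, the leading germline gene, and for Sox1, the early neural progenitor list member with the largest negative difference. Sequences are RefSeq's, GRCm38.p6, 5′ to 3′ on the gene's strand, with CG dinucleotides in capitals. The Ptprtos window (chr2:162390563-162390862, plus strand) holds 0 CG, Fthl17b (chrX:8962926-8963225, minus strand) holds 8, Dazl (chr17:50293571-50293870, minus strand) holds 28 and Sox1 (chr8:12395269-12395568, plus strand) holds 37.
Ptprtos: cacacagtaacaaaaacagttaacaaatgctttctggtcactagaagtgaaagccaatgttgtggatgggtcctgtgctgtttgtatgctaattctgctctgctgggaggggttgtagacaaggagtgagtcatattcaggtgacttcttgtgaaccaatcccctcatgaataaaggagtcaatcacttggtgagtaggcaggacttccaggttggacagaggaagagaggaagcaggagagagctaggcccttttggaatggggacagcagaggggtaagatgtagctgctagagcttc
Fthl17b: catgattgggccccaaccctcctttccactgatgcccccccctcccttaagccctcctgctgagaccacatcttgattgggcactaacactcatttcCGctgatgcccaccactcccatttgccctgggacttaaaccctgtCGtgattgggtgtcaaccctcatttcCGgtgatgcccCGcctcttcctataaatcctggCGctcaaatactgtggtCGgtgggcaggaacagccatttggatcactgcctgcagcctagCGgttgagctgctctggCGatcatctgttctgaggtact
Dazl: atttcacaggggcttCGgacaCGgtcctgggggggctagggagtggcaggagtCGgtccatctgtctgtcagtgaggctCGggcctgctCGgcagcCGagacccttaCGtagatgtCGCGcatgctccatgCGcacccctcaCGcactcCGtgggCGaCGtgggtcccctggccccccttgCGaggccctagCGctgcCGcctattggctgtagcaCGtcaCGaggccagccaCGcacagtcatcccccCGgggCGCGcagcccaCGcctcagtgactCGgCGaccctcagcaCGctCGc
Sox1: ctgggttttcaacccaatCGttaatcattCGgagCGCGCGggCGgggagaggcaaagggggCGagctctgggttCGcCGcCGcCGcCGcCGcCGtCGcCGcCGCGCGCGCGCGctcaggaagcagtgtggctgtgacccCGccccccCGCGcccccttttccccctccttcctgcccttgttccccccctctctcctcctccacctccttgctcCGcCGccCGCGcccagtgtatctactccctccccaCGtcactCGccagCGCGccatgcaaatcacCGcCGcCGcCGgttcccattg

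CG content was lower in the higher genes than in most compared genes. The median was 7 CG in 300 bases for the 97 of 122 higher genes with a promoter in the RefSeq table, 20.5 for 18 of the 24 lower genes, and 20 for 10313 compared genes. The 97 include genes that entered only through a bright Chd4-knockdown array, and a median without those was not taken. The same low median, 7, was found for 772 compared genes whose control intensity at day 4 was under the floor, and 71 of the 122 higher genes had such a control intensity. Over all 27025 promoters of the RefSeq table, compared or not, the median was 7 as well. Against the median of 20 of the compared genes, Ptprtos (0 CG) and Fthl17b (8) were below and Dazl (28) above. The 6 of 7 higher germline genes matched had a median of 22.5. CG content was not tested against silence in control cells, with which it moves here.

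Of the other genes among the 15 highest, several are known from testis, kidney or muscle. Usp26, an X-linked deubiquitinase gene expressed in testis, read 510.4 in the Chd4 knockdown, 144 in the Mbd3 knockdown and 81.5 in control (1.82). Nxf3, an X-linked relative of the main mRNA export factor, read 450.2, 138 and 65.4 (1.70), and Efhc2, an X-linked gene for an EF-hand protein, read 434, 116 and 47.1 (1.91). Slc5a4b, of the sodium/glucose cotransporter family, read 394, 118 and 33.5 (1.74), and Pkd2l1, a polycystin-type cation channel gene, 241, 69.6 and 49.3 (1.79). In these 5 genes the Mbd3 knockdown lay between the Chd4 knockdown and control. Fbp2, the muscle form of fructose bisphosphatase, read 146, 44.7 and 38.9 (1.71). Gm15091, C130073F10Rik and AI662270 had differences of 2.39, 2.22 and 1.90.

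Txnip was the one gene of the 15 highest whose control intensity exceeded both knockdowns. It encodes a thioredoxin-binding protein that limits glucose uptake, and its transcription depends on glucose through MLX partner factors. Its intensity was 265 in the Chd4 knockdown, 72.5 in the Mbd3 knockdown and 302 in control at day 4, a difference of 1.87, and 751, 694 and 566 at day 0, a difference of 0.12. So the Mbd3 knockdown at day 4 stood apart and the Chd4 knockdown lay near control. Arrdc4, which answers to the same factors, read 113 in the Chd4 knockdown, 73.4 in the Mbd3 knockdown and 126 in control (0.63). Of 15 MYC network genes, 1 (Txnip) was 2-fold higher and 0 lower, with a median of 0.15, against 0.926% higher over all compared genes.

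**Figure D2:**
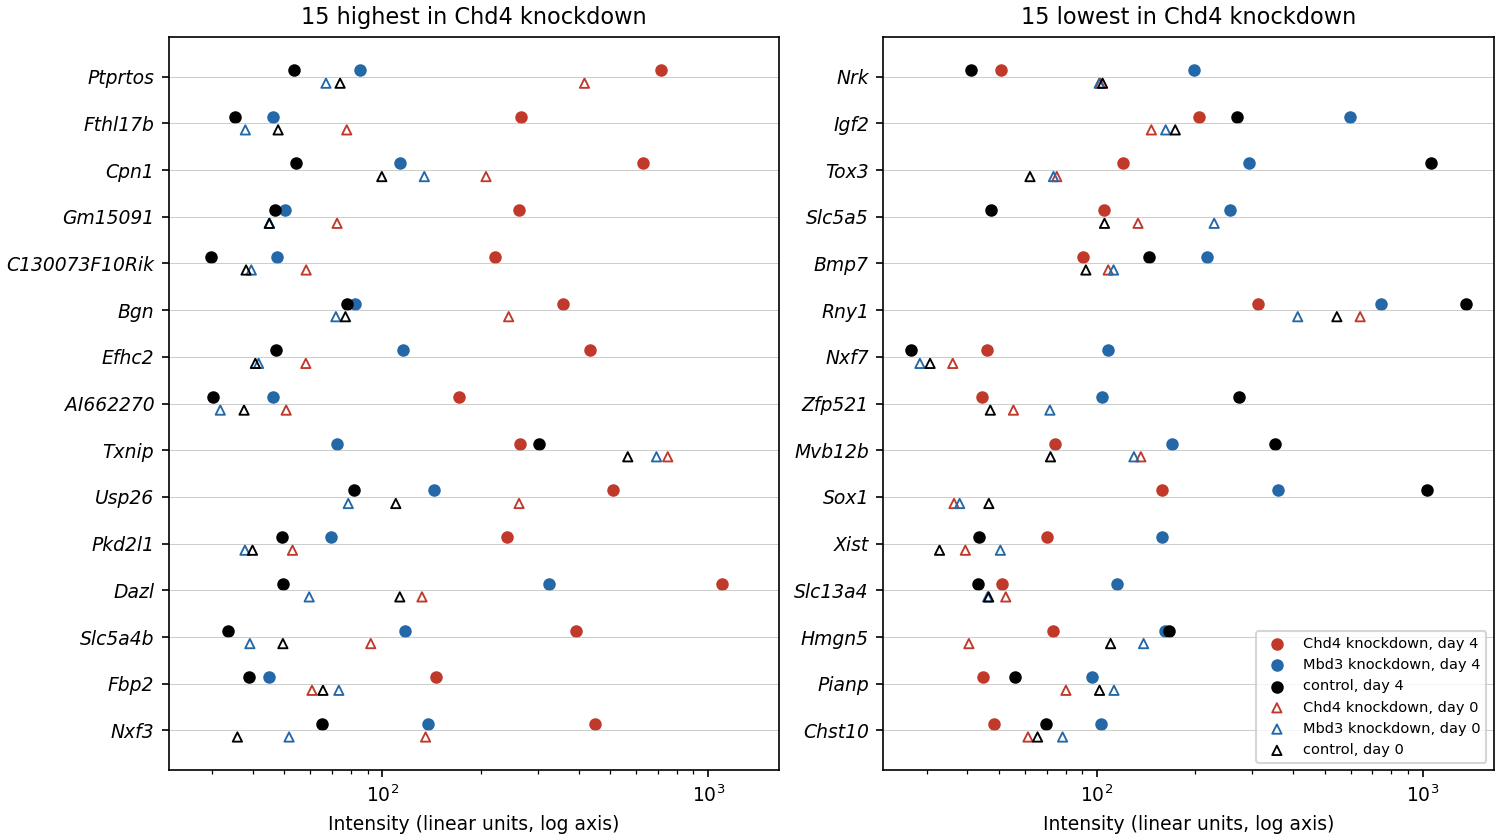
Intensity (linear units, log axis) of the 15 highest and 15 lowest genes with both day 4 arrays at or above the floor, with filled circles for day 4, open triangles for day 0, red for the Chd4 knockdown, blue for the Mbd3 knockdown and black for control. In the left panel the red circle lies right of the blue one for each gene and right of the black one except for Txnip, and in the right panel the red circle lies left of the blue one.

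Genes whose Mbd3-knockdown intensity was under the floor have only a bound. Gm364, an X-linked gene, was at least 5.04-fold higher (209 in the Chd4 knockdown, 27.2 in the Mbd3 knockdown and 23.7 in control). Ddr2, a receptor tyrosine kinase for collagen, was at least 4.62-fold higher (192, 32.5 and 29.9), and Slc1a1, a glutamate transporter, at least 3.48-fold (144, 35.6 and 36.5). Rgs5, a regulator of G protein signalling, was at least 3.37-fold higher by its brightest probe set and 2.18-fold higher by the mean of its probe sets, and Pramel30, of the PRAME-like family, at least 3.10-fold. In these genes both the Mbd3 knockdown and control were under the floor. On the lower side the bounds were small: Ephx3 was at least 1.72-fold lower, Faxc at least 1.58-fold, Fam83b at least 1.57-fold, Zfp30 at least 1.54-fold and Zhx2 at least 1.49-fold.

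Genes on the X chromosome made up a large part of the higher genes, a grouping chosen after their values were seen. Of the 122 higher genes, 31 (25.4%) lie on X, which holds 462 (3.51%) of the compared genes, but 20 of the 31 had the Mbd3 knockdown under the floor and so entered only through the Chd4 knockdown. With both arrays at or above the floor, 11 of 76 higher genes (14.5%) were X-linked, against 3.32% of the compared genes, and 2.71% of X genes were higher, against 0.544% of autosomal genes. By chromosome and with all compared genes, 6.71% of compared X genes were at least 2-fold higher, against 0.712% of 12636 autosomal genes and a range of 0.143% to 1.77% over the 19 autosomes. The X chromosome as a whole was not higher, with a median difference of -0.01, and 4 of the 24 lower genes were also X-linked (Nrk, Nxf7, Xist and Hmgn5). At day 0, 7 of 78 higher genes (8.97%) were X-linked, where X holds 430 of 13213 compared genes. There 1.63% of X genes were higher, against 0.59% of all compared genes. Of 4 compared Y genes 1 was higher, Uba1y, a germ cell copy of a ubiquitin-activating enzyme gene, at 404 in the Chd4 knockdown, 144 in the Mbd3 knockdown and 52.9 in control.

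**Figure D3:**
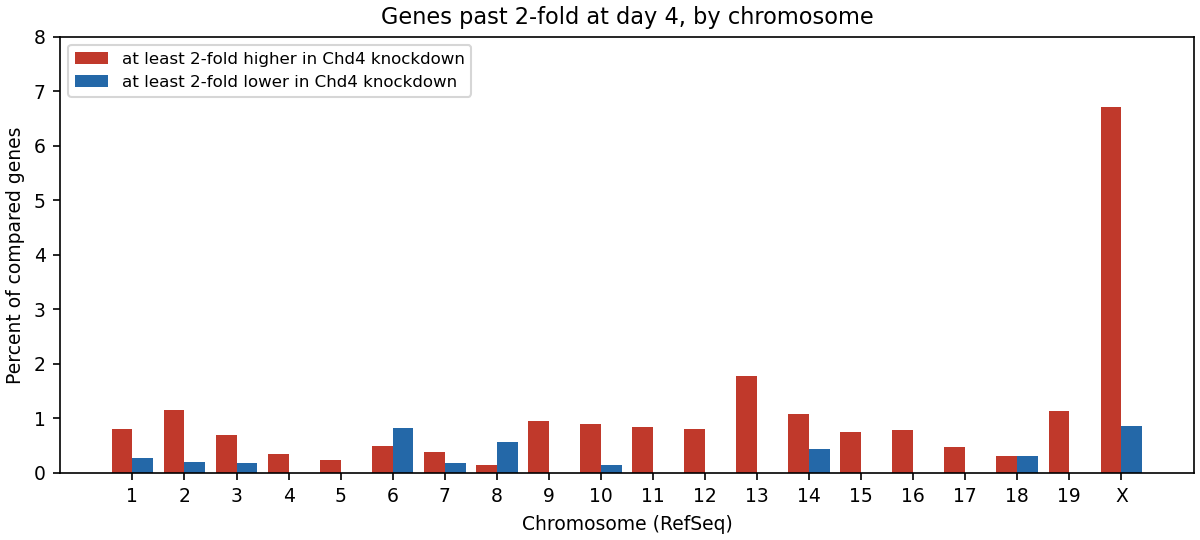
Percent of compared genes on each chromosome that were at least 2-fold higher (red, left bar) or lower (blue, right bar) in the Chd4 than in the Mbd3 knockdown at day 4. The X bar stands at 6.71% higher, against at most 1.77% on an autosome; the Y chromosome, with 4 compared genes, is not drawn.

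Several of these X-linked genes belong to multicopy families, which are known for expression in testis or in early embryos. Their copies are nearly identical, so probes may be shared between members and the count of separate genes is uncertain. The families too were picked after their values were seen. Over all 13179 compared genes 0.926% were higher by measured values, and 97 genes were higher at their bound. Members dim in both arrays are left out of the counts: 6 of 10 measured Rhox, 3 of 8 Magea and 2 of 5 Xlr genes were compared. Of 6 compared genes of the Gm15080 to Gm15128 group, 3 were at least 2-fold higher at their bound against the floor, with Gm15114 at 117 in the Chd4 knockdown, 21.3 in the Mbd3 knockdown and 25.1 in control, and Gm15127 at 119, 29.9 and 26.9. Except in Gm15091, the Mbd3-knockdown intensity of this group was under the floor, so the filter set the direction of the other members. The bounds of Gm15080, Gm15097 and Gm15128 were at least 1.89-fold, 1.77-fold and 1.38-fold. Of 4 compared Fthl17 genes 3 were higher: besides Fthl17b, Fthl17f read 133, 52.1 and 45.9, and Fthl17e 112, 30.4 and 28.6, while Fthl17a was under the floor in the Chd4 knockdown (-0.22). Of 6 compared Rhox genes, homeobox genes of the reproductive tract and placenta, 2 were higher, and Rhox5 led them with 406, 139.8 and 70.8 (1.54), while Rhox9 read 89.3, 137 and 67.8 (-0.62). Of the 3 compared Magea genes 0 were 2-fold higher at their bound, the largest being Magea3 at least 1.72-fold higher (71.3, 22.6 and 23.6), and of 2 compared Xlr genes 1 was, Xlr3c at least 2.33-fold higher.

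Families that lie mostly or wholly on autosomes were counted in the same way. Among all 13179 compared genes 97 were higher at their bound, and 0.926% were higher by measured values. Of 30 measured Pramel genes 9 were compared, and of 7 measured Nlrp4 genes 4 were, the rest being dim in both arrays. Of 9 compared Pramel genes 2 were at least 2-fold higher at their bound, Pramel30 and Pramel6, with Pramel6 at 85.7 in the Chd4 knockdown, 26.1 in the Mbd3 knockdown and 22.4 in control, and 1 had a negative difference. The X-linked Pramel3 was at least 1.62-fold higher. Of 3 Trim43 genes, which are active in the cleavage-stage embryo, 2 were higher, with Trim43a at 107, 32.4 and 31.0. Of 4 compared Nlrp4 genes, known from oocytes, 1 was higher, Nlrp4c at 87.2, 30.1 and 24.0. In each of these named examples the Mbd3 knockdown was under the floor, as was control. They entered only through the Chd4 knockdown, so the filter set their direction and these counts are a description.

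Germline genes were, of 36 lists, the list with the highest median difference. All lists and their members were chosen with earlier results of these data known. List counts set beside all compared genes, here and below, are therefore a description and no test. Of 26 compared members of 31 measured, 7 were at least 2-fold higher and 0 lower, 20 had a positive difference, and the median was 0.58. Among all compared genes 0.926% were higher, 51.1% were positive and the median was 0.01. Dazl, an RNA-binding protein that germ cells need, read 1104 in the Chd4 knockdown, 324 in the Mbd3 knockdown and 49.5 in control at day 4 (1.77), and 132, 59.6 and 113 at day 0 (1.15). At day 4 the order was Chd4 knockdown, Mbd3 knockdown, control, and at day 0 control lay near the Chd4 knockdown. Smc1b, the meiotic cohesin subunit, read 327, 122 and 75.3 (1.42), and Rpl10l, a testis copy of a ribosomal protein gene, 270.3, 99.3 and 38.7 (1.45). In both genes the Mbd3 knockdown was nearer to control than to the Chd4 knockdown. Piwil2, which binds piRNAs, read 139.9, 59.7 and 37.9 (1.23), and Stk31, a testis kinase with a Tudor domain, 120.4, 52.9 and 31.9 (1.19). Bounds apply to Taf7l (83.3, 30.7 and 25.6) and Asz1 (45.7, 21.5 and 21.1), whose Mbd3 knockdown was under the floor, so that Taf7l was at least 2.01-fold higher and Asz1 at least 1.10-fold.

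Other germline genes were high in both knockdowns. Morc1, a silencer of transposons in male germ cells, read 722 in the Chd4 knockdown, 362 in the Mbd3 knockdown and 45.7 in control, a difference just short of the limit. Sohlh2, a transcription factor of early germ cells, read 1697, 934 and 307 (0.86), and Stra8, the gate to meiosis, 211, 117 and 39.9 (0.85). The Mbd3 knockdown lay above control for these 3 genes and the Chd4 knockdown above both. Ddx4, the germ cell helicase, went the other way at 66.1, 86.8 and 113 (-0.39). The germline median at day 0 was 0.22. With values under the floor set to it, the day 4 median was 0.46 and 6 members were at least 2-fold higher.

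Of 22 naive pluripotency genes, which mark the ground state of mouse stem cells, 2 were at least 2-fold higher and 0 lower, 17 were positive and the median was 0.25. Over all compared genes 0.926% were higher, 51.1% were positive and the median was 0.01. Tcl1, a coactivator of AKT, read 362 in the Chd4 knockdown, 117 in the Mbd3 knockdown and 65.7 in control (1.63). Dppa3, which protects maternal methylation in the zygote, read 187, 63.6 and 39.3 (1.56). Both were highest in the Chd4 knockdown at day 4, and at day 0 their differences were 0.48 and 0.18. Fbxo15 and Fgf4 stood at 0.91 and 0.84, while Prdm1, a factor of germ cell specification, read 173, 327 and 101 (-0.92). The core factors were close together: Nanog read 1534 in the Chd4 knockdown, 1454 in the Mbd3 knockdown and 768 in control (0.08), Pou5f1 152, 141 and 77.6 (0.11), and Sox2 1131, 1316 and 1416 (-0.22). Of 16 compared core pluripotency genes 0 were 2-fold apart and the median was 0.13.

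Early neural progenitor genes had mostly negative differences. Of 27 compared members of 36 measured, 2 were at least 2-fold lower and 0 higher, 19 had a negative difference, and the median was -0.36. Among all compared genes 0.182% were lower, 48.9% were negative and the median was 0.01. Sox1, the earliest factor of the neural plate, read 159 in the Chd4 knockdown, 359.7 in the Mbd3 knockdown and 1033 in control at day 4 (-1.18), and 36.4, 37.9 and 46.5 at day 0. Ptn, the growth factor pleiotrophin, read 79.9, 167 and 676 at day 4 (-1.07), and Sfrp1, a secreted WNT inhibitor, 227, 443 and 2744 (-0.96). In these 3 genes both knockdowns were far below control and the Chd4 knockdown was the lowest. Vim, an intermediate filament of neural and mesenchymal cells, had the opposite difference, at 650.4, 458 and 2186 (0.51), and Nes and Pax6 differed by -0.05 and 0.02. With no filter on dim genes, all 36 measured members had a median of -0.10. At day 0 the list median was 0.03.

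Other lists with neural or epiblast members also had negative medians. Among all compared genes 48.9% were negative, 0.926% at least 2-fold higher and 0.182% lower. Counts of 0 past 2-fold in these lists are near those shares. Primed epiblast genes, of the state that follows the naive one, had 0 of 18 2-fold apart and a median of -0.35, with Wnt8a at 123 in the Chd4 knockdown, 237 in the Mbd3 knockdown and 80.7 in control (-0.95) and Fgf5 at 68.1, 114 and 82.5 (-0.75). Their median at day 0 was 0.25, and Dnmt3a, at 342, 224 and 161, went the other way (0.61). Notch pathway genes had 14 of 17 negative (median -0.24; Nrarp -0.56, Notch1 0.34) and axon guidance genes 21 of 27 (median -0.25; Nrp2 -0.92, Unc5b 0.42), with 0 past 2-fold in both. Postmitotic neuron genes had a median of -0.14 with 0 of 16 past 2-fold (Ebf2 -0.76, Stmn2 0.80), neural crest genes -0.12 with 0 of 11 (Pax3 -0.75, Foxd3 0.41) and Hox genes -0.11 with 0 of 8 (Hoxb1 -0.75, Hoxa4 0.23).

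The lowest genes were of several kinds and few. Nrk, an X-linked kinase of the placenta, read 50.6 in the Chd4 knockdown, 198 in the Mbd3 knockdown and 40.9 in control at day 4, which is 3.92-fold lower (-1.97), and 102, 102 and 104 at day 0. Here the Mbd3 knockdown stood apart and the Chd4 knockdown lay near control, and at day 0 the 3 lines were level. Xist, the RNA that silences one X chromosome, read 70.3, 159 and 43.5 (-1.18), Slc13a4, a sulfate transporter, 51.2, 115 and 43.1 (-1.17), and Nxf7 46.0, 108 and 26.9 (-1.23). Slc5a5, the iodide transporter of the thyroid, read 105, 256 and 47.4 (-1.28), so the Mbd3 knockdown was the highest in these genes too. Bmp7, a ligand of the BMP pathway, read 90.8, 217 and 145 (-1.26), while Bmp4, another ligand of that pathway, was higher at 372, 203 and 95.7 (0.87). Of 11 BMP response genes, 1 was lower (against 0.182% of all compared genes), 0 were higher and the median was -0.09.

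Another part of the lowest genes was highest in control. Tox3, which encodes an HMG-box protein of neurons, read 120.5 in the Chd4 knockdown, 293 in the Mbd3 knockdown and 1061 in control (-1.28). Zfp521, a factor of the conversion of stem cells to neural progenitors, read 44.2, 103 and 272 (-1.23), and Mvb12b, an ESCRT-I subunit, 74.5, 169 and 353 (-1.19). Rny1, a small noncoding Y RNA that binds the Ro protein, read 311, 744 and 1357 at day 4 (-1.26) and 642, 413 and 545 at day 0 (0.64). These 4 share with Sox1 and Ptn the order Chd4 knockdown, Mbd3 knockdown, control from low to high at day 4. Pianp and Chst10 stood at -1.11 and -1.09 with intensities of 44.6 and 48.1 in the Chd4 knockdown, near the floor, against 96.6 and 103 in the Mbd3 knockdown.

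Imprinted genes, which are expressed from 1 parental allele, had mostly negative differences under 2-fold in size. Of 20 compared, 17 had a negative difference, 1 was at least 2-fold lower and the median was -0.25, against 48.9% negative, 0.182% lower and a median of 0.01 over all compared genes. At day 0 the list median was -0.01. Igf2, the growth factor expressed from the paternal allele, read 206 in the Chd4 knockdown, 596 in the Mbd3 knockdown and 269 in control (-1.53), with 147, 162 and 174 at day 0. The Mbd3-knockdown array held the single high value at day 4. Peg10 read 591, 969 and 1001 (-0.71) and Grb10, an adaptor that restrains insulin signalling, 344, 554 and 1642 (-0.69), so in these genes control was the highest. Igf2r, the receptor that clears IGF2, differed by 0.08. Of 15 trophectoderm and keratin genes Rhox5 was 2-fold higher and Ascl2, an imprinted factor of the placenta, 2-fold lower at 71.9 in the Chd4 knockdown, 146 in the Mbd3 knockdown and 59.4 in control (-1.02), with a list median of -0.23. Over all compared genes 0.926% were higher. Of 27 epithelial and EMT genes 1 was 2-fold lower, Rab25 at 96.3, 201 and 70.4 (-1.06), with Cldn6 and Cldn4 at -0.96 and -0.73 and a median of -0.17.

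**Figure D4:**
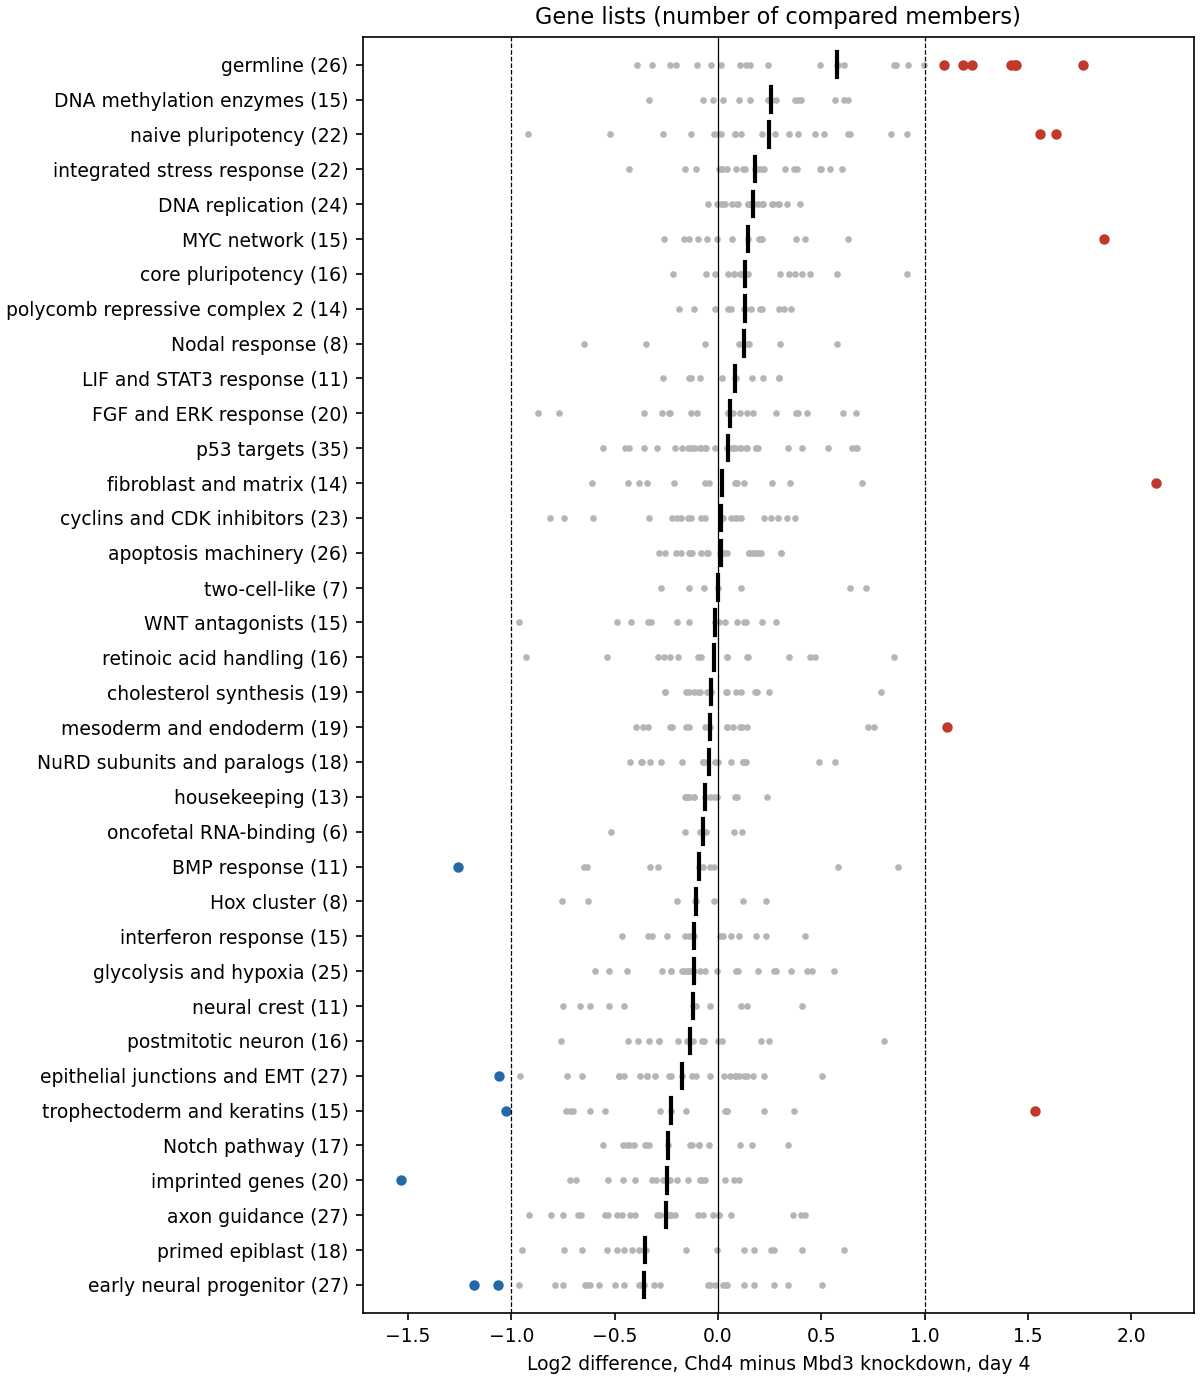
Difference of each compared member of 36 gene lists (points, log2 of Chd4 minus Mbd3 knockdown at day 4), with the list median as a black bar, members at least 2-fold higher in red and lower in blue. The germline list has the highest median, 0.58, and 7 red members, and the early neural progenitor list, with 2 blue members, and the primed epiblast list are near level at the other end with -0.36 and -0.35.

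Lists of genes for chromatin and proliferation had medians between -0.04 and 0.26. DNA replication genes had small differences, with 22 of 24 positive, 0 past 2-fold and a median of 0.17 (Lig1 0.40, Tyms -0.05). DNA methylation enzymes and readers had 12 of 15 positive and a median of 0.26, among them Tet2 at 0.63 and Dnmt3a at 0.61, while the maintenance pair Dnmt1 and Uhrf1 differed by 0.03 and 0.10. That list holds Mbd3 itself, a target. PRC2 genes had a median of 0.13 (Ezh1 0.35, Aebp2 -0.19), and NuRD subunits and paralogs one of -0.04, with Mbd3 at 0.56 and Chd5 at 0.49 on one side and Sall1 at -0.43 and Chd4 on the other. Cyclins and CDK inhibitors had a median of 0.02 with 0 of 23 past 2-fold, although Cdk6 read 166 in the Chd4 knockdown, 291 in the Mbd3 knockdown and 348 in control (-0.81) and Cdkn1b 84.8, 142 and 236 (-0.75). None of the members of these lists was 2-fold apart.

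Targets of the p53 pathway, which responds to DNA damage and other stress, had a median difference near that of all compared genes at day 4. Of 35 compared, 0 were 2-fold apart, 19 were positive and the median was 0.05, against -0.29 at day 0. Among all compared genes 0.926% were at least 2-fold higher, 0.182% lower and 51.1% positive, with a median of 0.01. A count of 0 past 2-fold, here and for the apoptosis genes below, is near those shares. Cdkn1a, the CDK inhibitor p21, read 589 in the Chd4 knockdown, 557 in the Mbd3 knockdown and 365 in control (0.08), and Mdm2, the ligase that limits p53, 738, 804 and 404 (-0.12). Both knockdowns were above control by similar amounts in these genes. Sesn1 and Plk2 stood at 0.67 each and Pltp and Perp at -0.56 and -0.45. Apoptosis machinery genes had 0 of 26 past 2-fold and a median of 0.02, with Birc3 at 0.31 and Cflar at -0.29 as the largest differences.

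The integrated stress response, in which ATF4 raises amino acid genes, had 19 of 22 positive differences with 0 past 2-fold, a median of 0.18, and 0.33 at day 0. Among all compared genes 51.1% were positive, 0.926% at least 2-fold higher and 0.182% lower, so counts of 0 here and below are near those shares. Cth and Asns, enzymes of cysteine and asparagine synthesis, led it at 0.60 and 0.54, and Ddit4 was at -0.43. Signalling and metabolic lists lay near zero with 0 members past 2-fold: FGF and ERK response 0.06 (Phlda1 0.67, Dusp4 -0.87), LIF and STAT3 response 0.08 (Stat3 0.30, Tfcp2l1 -0.26), Nodal response 0.12 (Tdgf1 0.58, Smad7 -0.65), glycolysis and hypoxia -0.12 (Hk2 0.56, Vegfa -0.60) and cholesterol synthesis -0.03 (Ebp 0.79, Pmvk -0.26). Interferon response genes had a median of -0.12 (Ifitm2 0.42, Oasl2 -0.46), oncofetal RNA-binding genes -0.07 (Trim71 0.12, Lin28b -0.52) and housekeeping genes -0.06 (Tfrc 0.24, Tbp -0.16). The WNT antagonists had a median of -0.02 (Wif1 0.28, Sfrp1 -0.96), genes of retinoic acid handling -0.02 (Stra8 0.85, Crabp1 -0.93) and two-cell-like genes -0.0019 (Usp17le 0.72, Zscan4b -0.28), and the sign of these 3 medians changed in at least 1 alternative. Fibroblast and matrix genes had a median of 0.02, with Bgn as 1 higher member of 14, against 0.926% of all compared genes. Mesoderm and endoderm genes had one of -0.04, with Gata6 as 1 higher member of 19 by measured values (at its bound at least 1.55-fold, at 64.4 in the Chd4 knockdown, 29.9 in the Mbd3 knockdown and 29.0 in control). The sign of those medians, and of the cyclin median, also changed in at least 1 alternative.

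Small noncoding RNAs had mostly negative differences under 2-fold in size, in a grouping chosen after their values were seen. Over all compared genes 48.9% were negative and 0.182% at least 2-fold lower. Of 73 compared small nucleolar and Cajal body RNAs, which guide modification of other RNAs, 63 had a negative difference, 2 were at least 2-fold lower and 0 higher, and the median was -0.25, against 0.06 at day 0. The pair was Scarna10, at 139.7 in the Chd4 knockdown, 289.1 in the Mbd3 knockdown and 618 in control, and Snord111, at 74.5, 151 and 223. Of 169 compared miRNA genes 125 had a negative difference, 0 were 2-fold apart and the median was -0.14, against -0.04 at day 0. Housekeeping genes, at -0.06, had 10 of 13 negative. The part of RNA extraction or labelling in the values of short RNAs was not tested.

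Day 0 offers a second pair of arrays of the same lines that shares no array with day 4. There, 78 of 13213 compared genes (0.59%) were at least 2-fold higher in the Chd4 knockdown and 62 (0.469%) lower. Of the 122 genes higher at day 4, 110 (90.2%) had a positive difference at day 0, against 49.6% of all compared genes, and 22 were at least 2-fold higher there, with a median of 0.49. Of the 91 of them that were compared at day 0 too, 81 were positive. Of the 24 genes lower at day 4, 13 were negative and 11 positive at day 0, 1 was 2-fold lower and 1 higher, and the median was -0.04. Across the 13179 genes the differences at both days correlated at r = 0.27 and rho = 0.20, as a description of genes measured on arrays of the same lines.

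The higher genes had a median intensity of 139 in the Chd4 knockdown, 51.3 in the Mbd3 knockdown and 38.1 in control at day 4, and of 68.3, 45.0 and 48.3 at day 0. The genes were chosen by their day 4 difference, which by itself makes the gap wider at day 4, and the 78 genes higher at day 0 had a median difference of 0.34 at day 4. The lower genes had medians of 74.5, 168 and 155 at day 4 and 86.4, 101.1 and 77.3 at day 0. Fthl17b, Cpn1 and Efhc2 had differences of 2.52, 2.47 and 1.91 at day 4 and of 1.03, 0.63 and 0.48 at day 0. Usp26, Ptprtos and, by its brightest probe set, Bgn had large differences at both days.

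**Figure D5:**
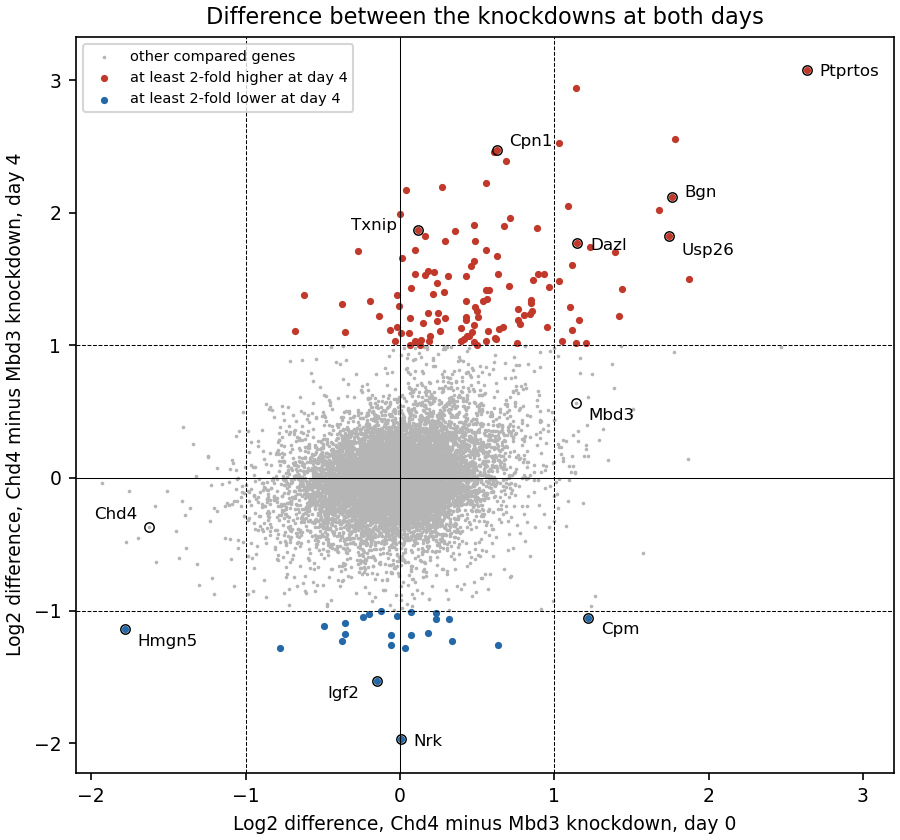
Log2 difference between the Chd4 and Mbd3 knockdowns at day 4 (vertical axis) and day 0 (horizontal axis) for the 13179 compared genes, with genes past 2-fold at day 4 in red where higher and in blue where lower, and 2-fold marked by dashed lines. Of the 122 red genes 110 lie right of zero, while the 24 blue genes lie on both sides, 13 left and 11 right.

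The difference between the lines that both days share was the one measure with a test. limma fitted shRNA and day as additive terms to the 4 knockdown arrays, with 1 residual degree of freedom a gene moderated over 12777 genes, and called a gene at a Benjamini-Hochberg adjusted p under 0.05. In this fit 18 genes rose (0.141%) and 1 fell (0.00783%) in the Chd4 relative to the Mbd3 knockdown, with 1334 genes at an unadjusted p under 0.05. Since the day 4 arrays are in the fit, its calls are no independent check of the day 4 list, and 17 of the 18 were at least 2-fold higher at day 4. The p-values measure only the departure of these 4 arrays from additive effects, which may be technical, and with the control arrays added limma called 0 genes, with 356 at an unadjusted p under 0.05. With no filter on dim genes it called 0 of 22180, with 1778 at an unadjusted p under 0.05.

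Ptprtos rose by 2.86 ± 0.16 (SE, limma adjusted p = 0.00160, higher in 2 of 2 days). Bgn rose by 1.94 ± 0.15 and Usp26 by 1.78 ± 0.14 (limma adjusted p = 0.00723 for each, with each higher at both days). The Bgn fit is of its brightest probe set alone, and the mean of its probe sets gave a difference of 1.15 at day 4. Slc1a1 and Ddr2 were called too (limma adjusted p = 0.00723 and 0.0107), but their folds are bounds, at least 3.48-fold and 4.62-fold at day 4, since the Mbd3 knockdown was under the floor there, and for Ddr2 also at day 0. Slc5a4b, whose Mbd3 knockdown was under the floor at day 0, rose by 1.49 ± 0.17 (limma adjusted p = 0.0284) and Dazl by 1.46 ± 0.18 (limma adjusted p = 0.0374). With the control arrays in the fit their SE rose to 0.66 and 1.07, and their unadjusted p to 0.0787 and 0.233, above those of the other called genes in that fit. Of the other risen genes, 9 rose by 1.12 to 1.69 (limma adjusted p between 0.0107 and 0.0435), with Nxf3 among them. In 1 of the 9, Pou2f3, the Mbd3 knockdown was under the floor at day 0. Gm19663 was at least 1.58-fold higher at day 4 (limma adjusted p = 0.0466). Slc7a1, a transporter of arginine and lysine, rose by 1.21 ± 0.16 (limma adjusted p = 0.0476) and is named as the 1 risen gene under 2-fold at day 4, with 328 in the Chd4 knockdown, 165 in the Mbd3 knockdown and 121 in control. Hmgn5, an X-linked gene for a nucleosome-binding protein, was the gene that fell, by 1.46 ± 0.18 (limma adjusted p = 0.0380). It read 73.4 in the Chd4 knockdown, 162 in the Mbd3 knockdown and 166 in control at day 4 and 40.4, 139 and 110.0 at day 0, so the Mbd3 knockdown was near control at day 4 and the Chd4 knockdown was lowest at both days. The day 0 value of the Chd4 knockdown was under the floor, so the estimate rests in part on a bound.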

How the data were processed

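Total RNA of 6 groups, with 1 Mouse Gene 2.0 ST array each, was measured. The authors deposited a linear intensity for each probe set. RMA, with no version, is named in the submitters' processing notes, and GeneSpring GX 12.6.1 in the series design text. The array's genome build was not given in the sources used here. Intensities ran from 17.4 to 7980, so a constant of 16 may have been added; subtracting it was an alternative.

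Log2 was taken without further scaling. Of 34351 probe sets, 23521 had 1 gene symbol, 1814 several and 9016 none; RefSeq (GRCm38.p6) held the gene ID of 23328 and gave symbols and chromosomes. A gene with several probe sets (1082 of 22180) was its brightest one, and all bounds rest on that one. Genes were named by rule: the 15 highest and 15 lowest with both arrays at the floor or above, 5 bounds in each direction, both targets, and list members past 2-fold or else of largest difference. Genes named beside these, and the X chromosome and family groups, were chosen after their values were seen. Of 772 symbols in 36 lists, 710 matched. Members and lists were chosen with earlier results of these data known. limma 3.58.1 in R 4.3.3 was tested on simulated data. Counts, medians and figures were made in Python 3.11.15 (pandas 2.3.3, numpy 2.4.6, matplotlib 3.10.9). The alternatives were subtraction of 16, the floor as a minimum, median centring, quantile normalization, the mean of probe sets, other filters, and other limma fits. The p53 gene itself is not reported here. The number of arrays, not depth, limits precision.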

Additional observations from a re-analysis of the deposited data

Results flagged for a closer look

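Cpm, which encodes the membrane carboxypeptidase M, was at least 2-fold apart in opposite directions at the 2 days, the one gene of this kind among 12713 compared at both days, where 23 genes were past 2-fold in the same direction at both. Its difference was -1.05 at day 4, with 50.3 in the Chd4 knockdown, 104 in the Mbd3 knockdown and 60.3 in control. It was 1.22 at day 0, with 95.3 in the Chd4 knockdown, 40.9 in the Mbd3 knockdown and 45.6 in control. The day 0 value of the Mbd3 knockdown is under the floor, and the difference between the days was not tested.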

How the results depend on the processing

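With 16 subtracted before log2, 202 genes were higher and 63 lower in place of 122 and 24, which include all 122 and 24, and the share of higher genes among those past 2-fold was 76.2% in place of 83.6%. With both arrays at or above the floor, 76 were higher (76% of those past 2-fold). The other 14 counts stayed within 1.5 times. No scaling moved the median of all genes by 0.1. limma called 0 genes with all 6 arrays (356 at an unadjusted p under 0.05), 0 with no filter (1778), 39 with an intensity trend (1368) and 14 with 16 subtracted (1308), in place of 19. No paired analysis was possible because each group has 1 array and the labels carry no replicate numbers; for the same reason no replicate could be left out. Of 210 values of named genes, 207 stayed on their side of 2-fold and 3 passed it, Ephx3 at -1.17, Fam83b at -1.15 and Faxc at -1.04 with 16 subtracted. The mean of all probe sets lowered Bgn to 1.15 and Rgs5 to 1.12. Of 252 list medians, 6 moved by 0.1 or more: early neural progenitor to -0.48 (16 subtracted) and -0.10 (no filter), germline to 0.72 (16 subtracted), 0.31 (no filter) and 0.46 (values under the floor set to it), and neural crest to -0.29 (both arrays above the floor). The median changed sign in at least 1 of 7 alternatives for the WNT antagonist, cyclin, fibroblast, mesoderm and endoderm, retinoic acid and two-cell-like lists.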
